A study of Saccharomyces cerevisiae with 1245 samples.

Results

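Promoter windows of 10 genes of leucine, isoleucine and lysine synthesis were examined, out of 6002 windows of protein-coding nuclear genes of budding yeast. Each window reached from 700 bp before to 100 bp after the coding start in the R64 annotation (sacCer3), and positions are given as distances from that start, negative upstream. The branched chain set held 4 genes, LEU1, LEU4, ILV2 and ILV6, and the lysine set held 6, LYS1, LYS4, LYS9, LYS12, LYS20 and LYS21. The data were peak lists from ChIP-exo, in which immunoprecipitated chromatin is digested by an exonuclease as far as the protein crosslinked to it, giving peaks of 1 bp. Cells in all groups grew in YPD at 25 °C and were crosslinked with 1.0% formaldehyde. The 22 libraries with heat shock covered 15 targets, 2 of them taken after 3 min and 20 after 6 min, and the 1115 libraries without heat shock covered 716 targets, with 1 library for 342 targets, 2 for 350 and 3 or more for 24. Of the 1115 libraries, 1035 were of TAP-tagged proteins recovered with IgG, and the rest used another tag or an antibody to the protein or mark itself. The labels name the strain, BY4741, for untagged samples alone, and the 15 untagged samples had no list here.

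Leucine, isoleucine and valine share early enzymes in yeast, and leucine then takes a branch of its own, whereas lysine is made from homocitrate by the fungal aminoadipate pathway. Leu3 is a zinc cluster factor that activates leucine pathway genes when the leucine intermediate isopropylmalate is present, and Lys14 is a zinc cluster factor that activates lysine genes in response to the intermediate aminoadipate semialdehyde. Gcn4 is the general activator of amino acid synthesis genes under amino acid starvation. Cells in YPD are supplied with amino acids.

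In the branched chain set, ILV2 (chromosome XIII, 484084-486147, plus strand) encodes the catalytic subunit of acetolactate synthase, the first common step to isoleucine, valine and leucine, and ILV6 (chromosome III, 104619-105548, minus strand) encodes its regulatory subunit. LEU4 (chromosome XIV, 424895-426754, minus strand) encodes isopropylmalate synthase, the entry to leucine, and LEU1 (chromosome VII, 476313-478652, minus strand) encodes isopropylmalate isomerase. In the lysine set, LYS20 (chromosome IV, 133437-134723, plus strand) and LYS21 (chromosome IV, 227393-228715, plus strand) encode homocitrate synthases. LYS4 (chromosome IV, 931129-933210, plus strand) encodes homoaconitase and LYS12 (chromosome IX, 186517-187632, minus strand) homoisocitrate dehydrogenase. LYS9 (chromosome XIV, 714048-715388, minus strand) and LYS1 (chromosome IX, 419615-420736, minus strand) encode the saccharopine dehydrogenases that complete the pathway.

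The 10 windows held 808 peaks from 237 libraries of 148 targets, and 568 of the 716 targets had none. Among the 148 targets, 43 had a peak in both sets, 22 in the branched chain set alone and 83 in the lysine set alone. The sets hold 4 and 6 windows, and no such split was counted over other promoters, so these counts show no trait of a set. LYS20 was the only member with a peak for 16 sequence-specific factors, 12 Mediator targets and 4 SAGA targets. LYS20 was the most occupied window, with 87 targets from 127 libraries, more than 96.2% of all promoters. LYS9 followed with 51 targets, LEU1 with 45, LYS12 with 44, LEU4 with 40 and LYS4 with 39. LYS1 had 28 targets, ILV2 27 and LYS21 24, and ILV6 had 12, fewer than the median of 14 over all promoters. The branched chain median was 33.5 targets (range 12 to 45) and the lysine median 41.5 (range 24 to 87), so the sets overlapped. A target counted here had a peak in at least 1 library. Where a target had 2 or more libraries, 56 of 118 of its peaks by promoter in the branched chain set (47.5%) were in every library, as were 105 of 260 in the lysine set (40.4%) and 41.9% over all promoters.

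**Figure D1:**
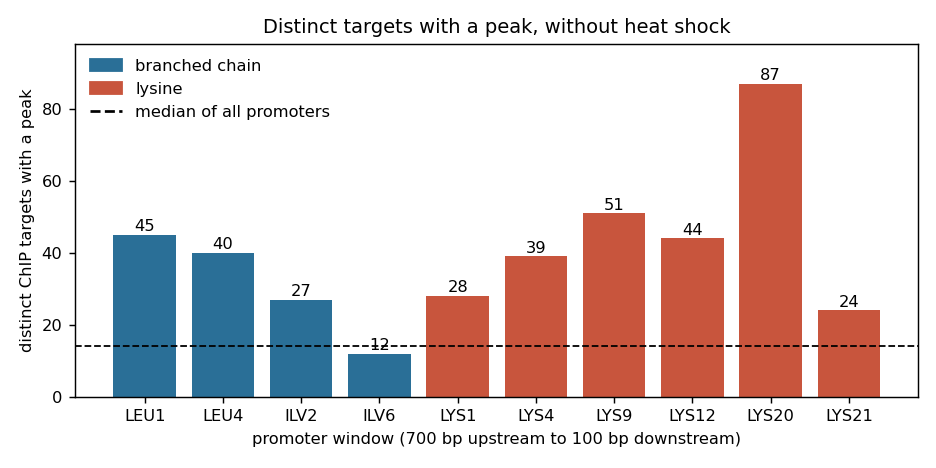
Number of distinct ChIP targets with a peak in each promoter window, in libraries without heat shock, with the median over all 6002 promoters as a dashed line. LYS20 stands highest at 87 targets, and ILV6 with 12 is the one window under the line.

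Leu3 marked the branched chain set and Lys14 the lysine set, with no crossing. Leu3 peaks lay in 3 of 4 branched chain windows and in 0 of 6 lysine windows, and in 0.816% of all promoters (lists of 36 and 57 peaks). At LEU4 the Leu3 peak was at -445 bp in replicate 1 and -446 bp in replicate 2. At ILV2 it was at -465 and -463 bp. LEU1 had 2 Leu3 peaks in each library, at -588 and -211 bp in replicate 1 and at -560 and -201 bp in replicate 2. The libraries thus placed the LEU4 and ILV2 peaks within 2 bp of each other, and ILV6 had no Leu3 peak in either. Lys14 peaks lay in 6 of 6 lysine windows and in 0 of 4 branched chain windows, against 0.55% of all promoters (lists of 28 and 40 peaks), and each of the 6 windows had one in both libraries. Single Lys14 positions were found at LYS4 (-284 and -285 bp), LYS12 (-181 and -177 bp) and LYS21 (-329 and -324 bp). Several were found at LYS9 (-226 and -155 bp in replicate 1, and -367, -225 and -157 bp in replicate 2) and at LYS20 (-574, -523 and -300 bp, and -571 and -301 bp). LYS1 had -195, -161 and 50 bp in replicate 1, and -376, -182, -152 and 54 bp in replicate 2. At every lysine promoter the closest peaks of the libraries lay within 5 bp of each other, and 3 of the 6 promoters had a single Lys14 position.

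Both regulators also marked other genes of their pathways. Leu3 had a peak in both libraries at ILV5, the acetohydroxyacid reductoisomerase (-372 and -372 bp), at BAT1, the mitochondrial branched chain aminotransferase (-143 and -142 bp), and at OAC1, a mitochondrial carrier (-306 bp in both). ILV3, the dihydroxyacid dehydratase, and LEU9, the second isopropylmalate synthase, had a Leu3 peak in replicate 2 alone, at -175 and -272 bp. Among the 31 promoters with Leu3 in both libraries were also GDH1, a glutamate dehydrogenase (-401 and -400 bp), and BAP2, a branched chain amino acid permease (-381 and -385 bp). The LEU4 peak falls also in the window of the divergent gene MET4, whose coding start is at -981 bp. Lys14 had a peak in both libraries at LYS2, the aminoadipate reductase (-239 and -220 bp), its own gene LYS14 (-202 and -216 bp), and CTP1, the mitochondrial citrate carrier (-192 and -189 bp). ARO8, an aminotransferase, had 1 in replicate 2 alone (-438 bp). The Lys14 peak of LYS4 falls also in the window of RTN1, whose divergent coding start is at -772 bp. Of the 23 promoters with Lys14 in both libraries, 5 were of the CUP1 locus, windows that hold peaks of 542 to 591 targets. The same 5 windows, and RRT15 with 527 targets, were among the 31 promoters with Leu3 in both libraries.

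Gcn4 was found at 1 member of each set, LEU4 and LYS20, and in 1.03% of all promoters (lists of 55 and 78 peaks). At LEU4 it was in both libraries, at -396 and -416 bp, 49 and 30 bp from the Leu3 peak of the same replicate number. At LYS20 it was in replicate 2 alone, at -584 and -361 bp. In the rest of the pathways, Gcn4 was in both libraries at ILV5, LEU9 and LYS2. No peak in any of the 10 windows was found for the nitrogen and amino acid regulators Bas1 (2.43% of all promoters), Gln3 (1.85%), Put3 (0.916%) and Dal81 (0.0167%, from a list of 2 peaks), or for Mcm1, a MADS box factor (7.83%).

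Factors that bind many promoters were found at up to 3 members each. Reb1, a general regulatory factor, was at LEU4 (-665 and -651 bp) and LYS20 (-565 and -556 bp) in both libraries and at LYS1 in replicate 2, and in 19.1% of all promoters. Abf1, another such factor, was at LYS4 alone (-362 and -397 bp; 13% of all promoters). Rap1 was at LEU4, ILV2 and LYS4 in its replicate 3 alone (18.3%), Cbf1 at LEU4 in replicate 2 (7.91%), and Tbf1 at LYS9 in replicate 2 (3.8%). The corepressor of Tup1 and Cyc8 was at LEU4 in both libraries of each subunit, Tup1 at -304 and -306 bp (6.26% of all promoters) and Cyc8 at -237 and -253 bp (5.16%), and at LYS20 in 1 library of each. Either subunit was found in 8.11% of promoters. Also at LEU4, Sok2, a regulator of filamentous growth, was at -300 and -303 bp, and Ume6, a meiotic gene repressor, was at ILV2 at -478 and -480 bp. Of 133 sequence-specific factors, 10 were at LEU4, 5 at ILV2, 3 at LEU1 and none at ILV6. In the lysine set 24 were at LYS20, 4 each at LYS1 and LYS9, 3 at LYS4, 2 at LYS21, and at LYS12 Lys14 alone. The mean over all promoters was 3.03, and 58.3% of promoters had at least 1.

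**Figure D2:**
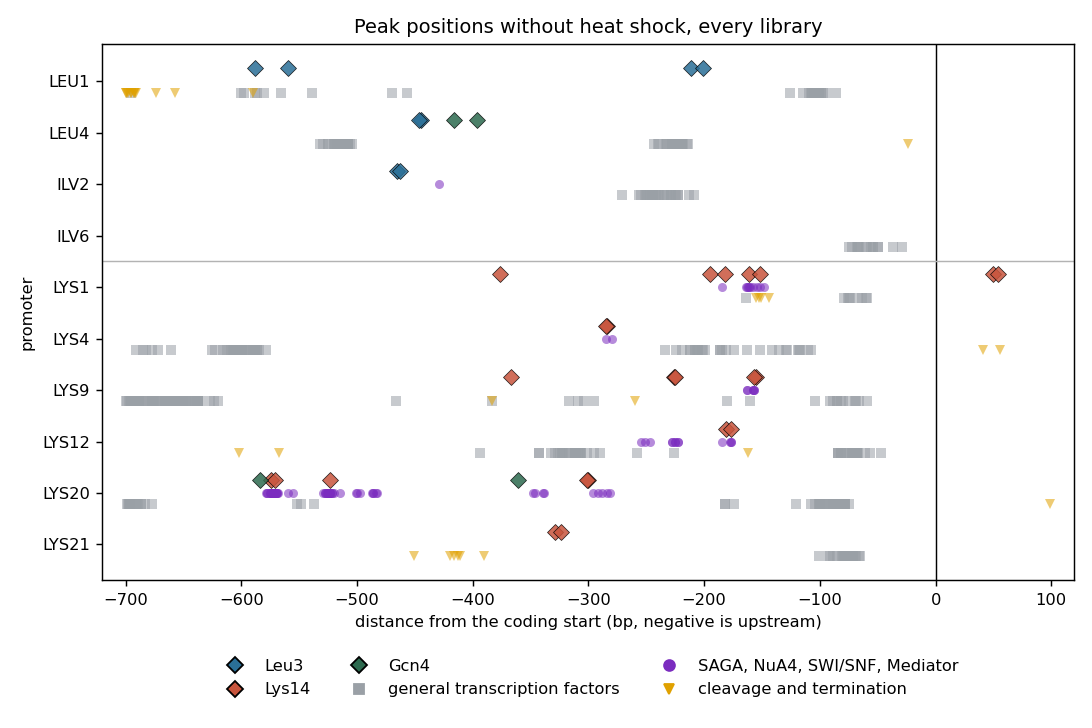
Peak positions in the 10 windows in base pairs from the coding start (horizontal axis) by promoter, every library without heat shock, with branched chain promoters above the line. Diamonds are Leu3, Lys14 and Gcn4, circles the coactivators, squares the general transcription factors and triangles cleavage and termination factors. Circles lie beside or near Lys14 diamonds at 5 of 6 lysine promoters, and squares form a stretch near the start at every promoter.

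The general transcription factors, which assemble with RNA polymerase II at the core promoter, were present in all 10 windows. TFIIB (Sua7) was at 10 of 10 (87.1% of all promoters), as were the TFIIH subunits Kin28 (52.5%), Rad3 (54.5%) and Tfb4 (72.1%) and the TFIIE subunit Tfa2 (75.6%). The TFIIA subunit TOA1 was at 9 of 10 (33.2%), and TATA-binding protein (Spt15) at 7 of 10, 3 branched chain and 4 lysine (30.5%). The Sua7 peak nearest the start was close in position over its 3 libraries. It lay at -95, -102 and -102 bp at LEU1, at -219, -222 and -228 bp at LEU4, at -231, -209 and -225 bp at ILV2, and at -54, -75 and -50 bp at ILV6. In the lysine set it lay at -67, -79 and -64 bp at LYS1, at -129, -117 and -128 bp at LYS4, at -80, -89 and -75 bp at LYS9, at -84, -68 and -57 bp at LYS12, at -95, -108 and -88 bp at LYS20, and at -89, -91 and -78 bp at LYS21. LEU4 and ILV2 thus had it more than 200 bp upstream in every library, and the other 8 promoters had it nearer.

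Of 29 general transcription factors, LEU1 and LEU4 had 15 each, ILV2 14 and ILV6 9. In the lysine set LYS9 had 28, LYS4 21, LYS20 18, LYS12 17, LYS21 15 and LYS1 7. The mean over all promoters was 8.91, and 88.6% of promoters had at least 1. The count at LYS9 came mainly from a second stretch far upstream, where 28 factors had peaks with a median of -658 bp, while 9 had peaks in the near stretch (median -83.5 bp). All 13 TAFs, the subunits of TFIID beside TATA-binding protein, were at LYS9, 6 at LYS4, 3 each at LYS12 and LYS20, 1 at LYS1 and none at LYS21 or any branched chain promoter (25.4% of all promoters had at least 1). The TAFs at LYS20 were Taf6 (-552 bp), Taf10 (-537 bp) and Taf12 (-548 bp), each in replicate 1 alone. These are also subunits of SAGA, as are Taf5 and Taf9, and none of the 8 TAFs found in TFIID alone was there. Taf4, one of those 8, was at 0 of 4 branched chain and 4 of 6 lysine promoters and at 13.3% of all promoters. The nearest annotated feature upstream of LYS9 is the snoRNA gene SNR49 on the opposite strand, with its near edge at -732 bp, so that the far stretch lies between the genes. LEU1 had peaks of 3 factors far upstream (median -583 bp). Far stretches of more factors were found at LEU4 (15 factors, median -514 bp, MET4 start at -981 bp), LYS4 (18, -604 bp, RTN1 start at -772 bp), LYS20 (15, -690 bp, MRX19 start at -1604 bp) and LYS12 (16, -313 bp, RSM25 coding end at -358 bp). ILV2, ILV6, LYS1 and LYS21 had none beyond -280 bp. Which of a pair of neighbouring transcripts a factor in a far stretch serves cannot be told from the lists.

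Coactivator complexes were found at lysine promoters more than at branched chain promoters. SAGA, SWI/SNF and Mediator had most targets at LYS20, and NuA4 and RSC at LYS1. Of 13 targets of SAGA, a histone acetyltransferase and deubiquitinase complex that works with activators, 10 were at LYS20, 6 at LYS12, 4 at LYS9, 3 at LYS1, 1 at LYS4 and none at LYS21. In the branched chain set 1 was at ILV2 and none at LEU1, LEU4 or ILV6. The mean was 0.782 over all promoters, of which 17.6% had at least 1. Of 9 targets of NuA4, the histone H4 acetyltransferase, 4 were at LYS1, 3 each at LYS12 and LYS20 and 1 each at LYS4 and LYS9, with none at LYS21 or in the branched chain set (6.36% of all promoters had at least 1). Of 8 targets of the remodeller SWI/SNF, 6 were at LYS20, 2 at LYS1 and 1 each at LYS9 and LYS12, with none in the branched chain set (12.8%). Mediator, which links activators to RNA polymerase II, had 13 of 24 targets at LYS20 and Med2 alone at LYS12, and none at the other 8 promoters (10.6%). Of 12 targets of the remodeller RSC, Rsc3 and Rsc8 were at LYS1 and none elsewhere (8.56%). The catalytic subunit of RSC, Sth1, had no peak in the 10 windows (0.2% of all promoters), the Mediator tail subunit Gal11 was at LYS20 alone (2.37%) and the SWI/SNF ATPase Snf2 at LYS20 alone (4.97%).

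The subunits that leaned most to the lysine set were named for that lean, so their counts describe it and add no support to the split of the complexes. Esa1, the NuA4 catalytic subunit, was at 0 of 4 branched chain and 5 of 6 lysine promoters, against 5.25% of all promoters, and its 5 peaks came from replicate 2, a list of 594 peaks, while replicate 1 with 37 peaks had none. Sgf73, the anchor of the SAGA deubiquitinase module, was at 0 of 4 and 5 of 6 (13.4%), all 5 in replicate 1 with 869 peaks and LYS20 also in replicate 2. Swi3, a core SWI/SNF subunit, was at 0 of 4 and 4 of 6 (8.93%), all in replicate 1 with 621 peaks, and Ada2, a SAGA acetyltransferase subunit, was at 0 of 4 and 4 of 6 (11.6%), all in replicate 2 and LYS20 also in replicate 1. Leaving out that 1 library took each of these 4 targets to 0 lysine promoters (Esa1, Swi3) or to LYS20 alone (Sgf73, Ada2). Eaf5 of NuA4 was at 0 of 4 and 3 of 6 (3.7%), at LYS1 and LYS12 in both of its libraries. Yng2 of NuA4 (4%), Ubp8, the SAGA deubiquitinase (4.8%), and Sgf11 of the same module (9.45%) were each at 0 of 4 and 3 of 6. The Yng2 and Ubp8 peaks all came from replicate 1, and without it Sgf11 was at LYS20 alone. Spt7, a SAGA scaffold subunit, was at 1 of 4 and 3 of 6 (9.93%). The split between the sets was described and not tested, since the members were chosen with results known.

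**Figure D3:**
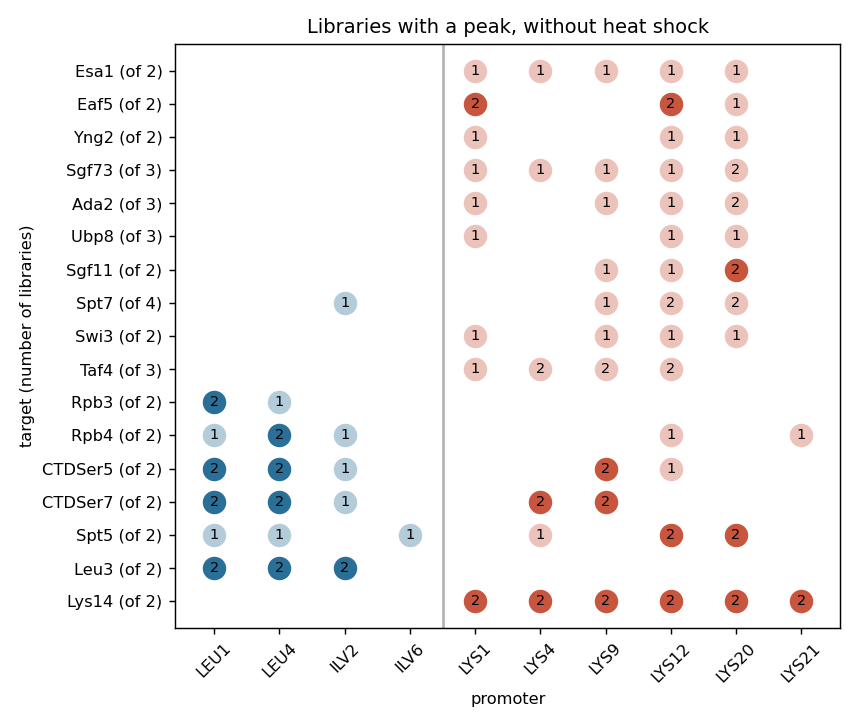
Number of libraries without heat shock in which each target (rows, with its number of libraries) had a peak in each window (columns), with full colour where every library had one. In the rows from Esa1 to Swi3 most lysine columns hold 1 library, with Eaf5 at LYS1 and LYS12 in both, Taf4 is in 2 of 3 libraries at LYS4, LYS9 and LYS12, and Leu3 and Lys14 are in both of their libraries throughout.

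Coactivator peaks in the lysine windows lay on the Lys14 positions. Within 50 bp of a Lys14 peak were 36 of 38 SAGA peaks (94.7%, median distance 4 bp), 13 of 14 NuA4 peaks (92.9%, 2.5 bp), 16 of 16 SWI/SNF peaks (median 2 bp) and 21 of 21 Mediator peaks (median 2 bp). Stretches within 50 bp of a Lys14 peak made up 24.7% of the length of the 6 windows. Of the 297 general transcription factor peaks there, 10 were as near (3.37%, median distance 218 bp). Of those 10, 4 were of TAFs shared with SAGA, which had 16 peaks there, 5 of Taf4, and 1 of the 249 peaks of factors other than TAFs (0.402%). None of 9 RNA polymerase II or 11 elongation factor peaks were. At LYS9, the Lys14 peaks at -155 and -157 bp stood beside Ada2 and Swi3 at -158 bp, Esa1 and Sgf73 at -157 bp, and Sgf11 and Spt7 at -163 bp. At LYS4, the Lys14 peaks at -284 and -285 bp stood beside Esa1 at -285 bp and Sgf73 at -280 bp. At LYS1 the peaks of Esa1 (-158 bp), Eaf5 (-164 and -161 bp), Yng2 (-163 bp), Sgf73 (-160 bp) and Swi3 (-154 bp), and those of the RSC subunits Rsc8 (-161 bp) and Rsc3 (-154 bp), stood beside the Lys14 peaks at -161 and -152 bp. LYS12 had a second position upstream of Lys14 (-181 and -177 bp). Eaf5 at -225 and -228 bp, Esa1 at -228 bp, and Swi3 and Med2 at -223 bp lay there. Spt3 (-247 bp), Yng2 (-251 bp) and Ubp8 (-255 bp) lay further upstream. A group at Lys14 itself held Sgf73 and Sgf11 at -177 bp and Ada2 at -185 bp. Spt7 was at both places, at -225 bp in replicate 1 and at -178 bp in replicate 4.

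LYS20 carried most of these peaks, and other factors shared its positions. Without LYS20, 13 of 15 SAGA peaks (86.7%), 10 of 11 NuA4 peaks (90.9%) and 4 of 4 SWI/SNF peaks were within 50 bp of Lys14, against 2.82% of general transcription factor peaks. Mediator had 20 of its 21 peaks at LYS20 and 1 elsewhere, Med2 at LYS12, so its place was read from 1 promoter. At LYS20, Gcn5, the SAGA acetyltransferase, was at -573 and -568 bp, Snf2 at -523 bp and Gal11 at -569 bp, beside Lys14 at -574, -571 and -523 bp. Asg1 at -573 and -575 bp, Mig2 at -567 and -572 bp and Sok2 at -566 and -573 bp, all sequence-specific factors, lay at the same place. Over the 6 windows, 36 of 45 peaks of sequence-specific factors other than Lys14 (80%) lay within 50 bp of a Lys14 peak, the highest share outside the coactivators among the groups with over 2 peaks. Most of these 45 peaks were at LYS20, so the share is largely that of 1 promoter. LYS21 had Lys14 in both libraries and no SAGA, NuA4, SWI/SNF or Mediator peak.

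**Figure D4:**
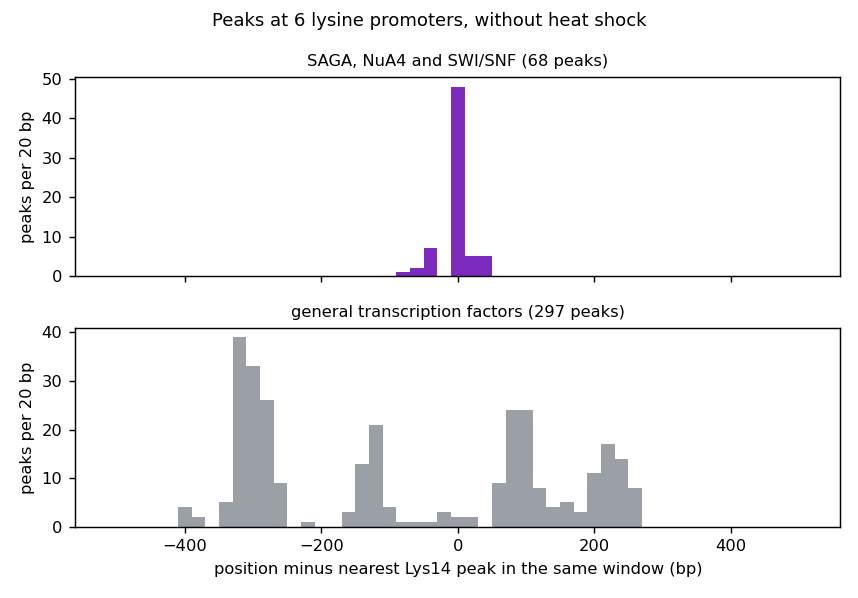
Signed distance in base pairs from each peak in the 6 lysine windows to the nearest Lys14 peak of the same window, in bins of 20 bp, for coactivators (top) and general transcription factors (bottom). Coactivator peaks gather at 0, and general transcription factor peaks lie on both sides, with 3.37% within 50 bp.

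The Leu3 positions showed little of this without heat shock. LEU1, LEU4 and ILV2 together had 1 SAGA peak, Spt7 at ILV2 at -429 bp, 34 bp from Leu3, and no NuA4, SWI/SNF, RSC or Mediator peak. Of their general transcription factor peaks, 7 (5.69%) lay within 50 bp of Leu3, where such stretches made up 18.5% of the window length. Of 21 peaks of other sequence-specific factors, 8 were as near (38.1%), among them War1 at LEU4 at -436 bp.

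The places of 3 classes were compared with that of the general transcription factors on the mean over targets of each target's median position in the 10 windows, with a two-sided permutation test over targets (100000 resamples) and Benjamini-Hochberg adjustment over the 3 classes. Mediator averaged -525 ± 54.9 bp (SD, n = 13 targets) and general transcription factors -360 ± 186 bp (n = 28), a difference of -165 bp (permutation test, adjusted p = 0.0123). All 13 Mediator targets were at LYS20, 12 of them there alone, so they are subunits of 1 complex at 1 promoter and not independent of each other, and the p-value gives no order of classes. Sequence-specific factors averaged -466 ± 133 bp (n = 37), -106 bp from general transcription factors (permutation test, adjusted p = 0.0142). Of the 37, 24 were at LYS20 and 16 there alone. This difference did not keep its size or direction. It was -24.9 bp without LYS20 (permutation test, adjusted p = 0.615), 145 bp with peaks of score 1000 (adjusted p = 0.0383) and 55.3 bp with a peak required in every library (adjusted p = 0.628). SAGA averaged -371 ± 175 bp (n = 10), -10.5 bp from general transcription factors (permutation test, adjusted p = 0.875), and 191 bp without LYS20 (adjusted p = 0.026). All 10 SAGA targets were at LYS20, 4 of them there alone, and they are subunits of 1 complex. Many of the general transcription factors share complexes too. The targets are thus not independent units in any of the 3 comparisons, which limits every p-value given here. Leaving out either replicate number took the Mediator difference to -91.8 and -110 bp and that of sequence-specific factors to -41.8 and -47.4 bp, with neither past the threshold. No order of classes along the 10 windows is read from these values, since 1 promoter sets much of them. The far stretches at LYS9, LYS4, LEU4 and LYS20 entered the mean of the general transcription factors. Over all promoters that mean was -171 bp, against -360 bp in the 10 windows. The differences over all promoters were -162 bp for sequence-specific factors, -193 bp for Mediator and -175 bp for SAGA. The 3 classes thus lay upstream on average over all promoters, while SAGA differed by -10.5 bp in the 10 windows. No trait particular to the 10 windows is read from these differences.

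RNA polymerase II subunits were found in both sets. Of 7 such targets, LEU1 and LEU4 had 3 each, ILV2 1 and ILV6 none, and in the lysine set LYS12 had 4, LYS9 2, LYS20 and LYS21 1 each, and LYS1 and LYS4 none (23% of all promoters had at least 1). The core subunit Rpb3 was at 2 of 4 branched chain and 0 of 6 lysine promoters (15.3% of all promoters), and Rpb4, of the stalk, at 3 of 4 and 2 of 6 (12%). The C-terminal domain of the largest subunit phosphorylated at serine 5 was at 3 of 4 and 2 of 6 (16.4%), and at serine 7 likewise (16.5%). Positions of the polymerase subunits differed between promoters. At LEU1, Rpb2 lay at -691 and -673 bp, Rpb3 at -685 and -699 bp and Rpb4 at -695 bp, at the far edge of the window, while at LEU4 Rpb3 lay at -194 bp and Rpb4 at -185, 35 and -49 bp. At LYS12, Rpb2 (-438 bp), Rpb4 (-527 bp), Rpb7 (-450 bp) and Rpb9 (-552 and -358 bp) lay at or beyond the RSM25 coding end at -358 bp. Rpb2 (-672 bp) and Rpb9 (-668 bp) at LYS9 lay in the far stretch. The counts at LYS12 and LYS9 thus need not be polymerase on these genes. The elongation factor Spt5 was at 3 of 4 and 3 of 6 promoters (11.9%). It lay at the coding start or downstream of it at LEU4 (0 bp), ILV6 (79 bp), LYS4 (99 bp) and LYS20 (34 and 0 bp). At LEU1 it lay far upstream (-651 bp), and at LYS12 both upstream (-432 and -501 bp) and downstream (94 bp). Of 17 elongation factors, LEU1, LYS4, LYS12 and LYS20 had 2 each, LEU4, ILV2 and ILV6 1 each, and the other lysine promoters none (17.6% of all promoters).

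Cleavage and termination factors, which process the 3' ends of transcripts, were most numerous at LEU1. Of 10 such targets, 8 were at LEU1, 4 at LYS21, 3 each at LYS1 and LYS12, 2 at LYS4, 1 each at LEU4, LYS9 and LYS20, and none at ILV2 or ILV6 (33.3% of all promoters had at least 1). At LEU1 they lay with RNA polymerase II at the window's far edge, with Ysh1, the endonuclease, at -691 and -693 bp, Pcf11 at -698 and -674 bp and the poly(A) polymerase Pap1 at -657 and -695 bp. The next gene upstream in the same direction is PMA1, the plasma membrane proton pump, whose coding end is at -1258 bp. At LYS21, Ysh1 lay at -390 and -451 bp, Ref2 at -420 and -411 bp and Pcf11 at -416 bp, with the coding end of CDC53 at -642 bp. At LYS1, Ref2 at -151 and -155 bp and Ysh1 at -153 bp lay downstream of the coding end of NRE1 at -290 bp and at the Lys14 position.

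Heat shock libraries were set against libraries of the same target and antibody without heat shock. With heat shock, 3 SAGA and 2 RSC subunits were found at LEU4 and ILV2. Spt7 was at 2 branched chain and 5 lysine promoters with heat shock (18.9% of all promoters), against 1 and 3 without (9.91%). Ubp8 was at 2 and 5 with heat shock (14.1%), against 0 and 3 without (4.8%). Sgf11 was at 2 and 2 with heat shock (9.08%), against 0 and 3 without (9.45%). Rsc9 was at 2 and 2 with heat shock (29.7%), against 0 and 0 without (0.7%), and Rsc3 at 2 and 2 (18.6%), all in 1 of 2 libraries, against 0 and 1 (3.6%). The branched chain promoters were LEU4 and ILV2 for all 5 targets, and LEU1 and ILV6 had no peak of any of them in either condition. The other RSC targets had no peak at any member with heat shock: Rsc1 (7.58% of all promoters), Rsc58 (3.9%), Rsc6 (0.183%) and the catalytic subunit Sth1 (0.233%).

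List length moved with heat shock for most of these targets. Spt7 had 1065 and 1674 peaks with heat shock, against 575, 42 and 810 without. Ubp8 had 544 and 1038, against 272, 22 and 44. Rsc9 had 1714 and 1455, against 46 and 79. Rsc3 had 178 and 1316, against 188 and 164. The longer lists thus went with more members called, and the part of list length was not tested. Sgf11 had 297 and 667 peaks with heat shock, against 614 and 239 without, and about the same share of all promoters in both conditions. Its branched chain peaks with heat shock were ILV2 at -440 and -448 bp, 1 in each library, and LEU4 at -460 bp in 1 library.

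Most heat shock peaks of SAGA and RSC subunits lay near the same regulator positions. At ILV2, where Leu3 was at -465 and -463 bp without heat shock, Ubp8 was at -463 and -466 bp, Rsc9 at -449 and -442 bp and Rsc3 at -461 bp. Spt7 was at -425 and -443 bp there. Without heat shock, ILV2 also had Hsf1, the heat shock factor, at -420 bp and Rap1 at -421 bp, each in 1 library. Hsf1 was at ILV2 with heat shock too, in 1 library (4.45% of all promoters, against 6.86% without). Which of these factors the heat shock peaks go with was not tested. At LEU4, where Leu3 was at -445 and -446 bp, Ubp8 was at -442 bp, Sgf11 at -460 bp and Rsc3 at -450 bp, and Spt7 lay nearer the start at -387 and -399 bp. LEU4 also had heat shock peaks far from Leu3, of Rsc3 at -243 bp, Rsc9 at -657 bp and Spt7 at -639 bp, as did ILV2 of Spt7 at -301 bp. At LYS21, which had no SAGA peak without heat shock, Spt7 was at -315 bp, Sgf11 at -317 bp and Ubp8 at -328 bp with heat shock, each in 1 library, beside Lys14 at -329 and -324 bp. Of the heat shock SAGA peaks, 9 of 12 in the Leu3-bearing windows lay within 50 bp of Leu3 (75%, median 21.5 bp) and 24 of 27 in the lysine windows within 50 bp of Lys14 (88.9%, median 3 bp). Of the heat shock RSC peaks, 5 of 7 lay within 50 bp of Leu3 (71.4%) and 6 of 6 within 50 bp of Lys14. Leu3 and Lys14 were not among the heat shock targets. Spt15 was at 1 branched chain and 2 lysine promoters with heat shock (16.6% of all promoters), against 3 and 4 without (30.4%). This set 1 list of 1140 peaks against lists of 1808 and 1337, and the share of all promoters was lower too. The heat shock libraries of Spt15 and Rpb3 were taken after 3 min, and those of the other targets after 6 min. Rpb3 was at 2 and 0 in both conditions (15.1% of all promoters with heat shock and 15.3% without). These were LEU4 and ILV2 with heat shock and LEU1 and LEU4 without.

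**Figure D5:**
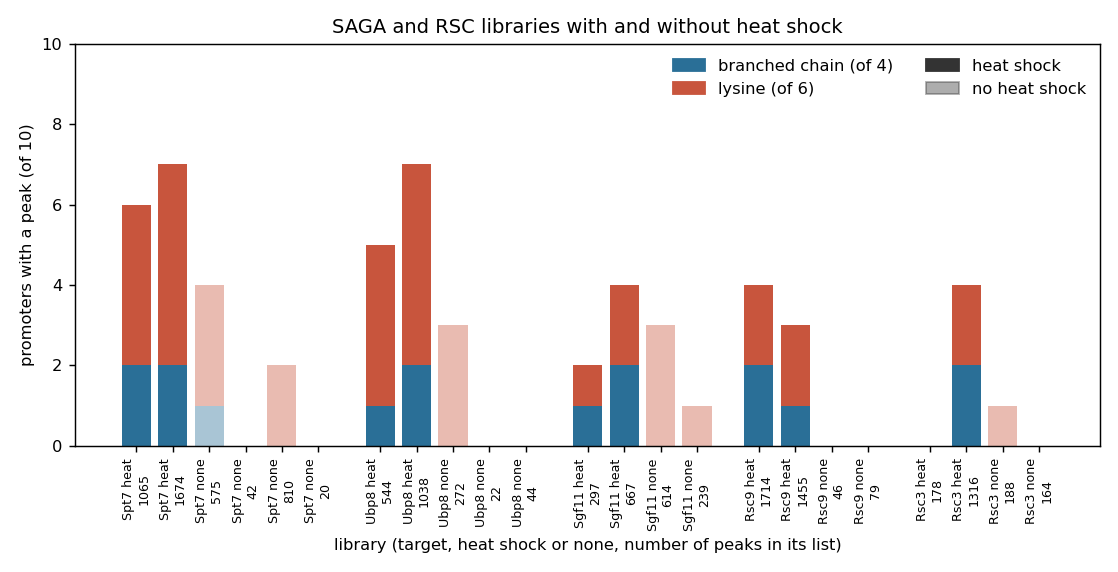
Number of the 10 promoters with a peak in each library of 5 SAGA and RSC targets, with heat shock (full colour, left of each target's group) and without (pale), and the list's number of peaks under each bar. The Spt7 library of 20 peaks without heat shock used another antibody and was not matched. Branched chain promoters appear in pale colour in 1 Spt7 library alone.

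Enzymes of the pathways that were themselves immunoprecipitated gave few peaks in these windows. Lys20, which is also found in the nucleus, had 115 and 908 peaks and 1 in the 10 windows, at LEU1 at -700 bp in replicate 2 (5.71% of all promoters). Lys21 had 108 peaks and 1 peak and none in the windows (1.02%), and Ilv5 had 53 peaks in its 1 library and none in the windows (0.183%). None of the 3 had a peak in its own gene. Of 12 amino acid enzymes profiled, Lys20 at LEU1 was the one found at a member (5.9% of all promoters had at least 1).

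The windows most like each member in their targets were compared by the Jaccard index, the targets at both promoters over the targets at either, over 716 targets. For LYS1 the nearest window was LYS2 (0.488, 21 shared targets), the one case of a gene of the same pathway among the 2 nearest windows of any member. LYS9 was nearest to MTQ1 (0.78) and RPL5 (0.768), LYS20 to ROX1 (0.577) and MIT1 (0.566), LYS12 to AHA1 (0.582) and STI1 (0.548), LYS4 to DED1 (0.674) and LYP1 (0.643), and LYS21 to INP53 (0.76) and SWS2 (0.72). LEU1 was nearest to BFR1 (0.612) and ALD5 (0.593), LEU4 to RAS1 (0.6) and ATP2 (0.591), ILV2 to ATP2 (0.676) and CHO1 (0.667), and ILV6 to YND1 (0.923) and BMT2 (0.917). Of the 12 targets at ILV6, 9 were general transcription factors. The ranges within and between the sets overlapped: the median index was 0.378 for 6 branched chain pairs (range 0.239 to 0.489), 0.29 for 15 lysine pairs (0.175 to 0.552) and 0.312 for 24 pairs between sets (0.115 to 0.5).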

How the data were processed

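The deposited files give, for every library by itself, peaks 1 bp wide that carry the name ChExMix and a score between 66 and 1000, as their contents show. What the authors' score measures, and whether a control or input was used, is not given in the sources used here, and 24.7% of peaks had the highest score, so the score served only as a filter in 1 alternative. Reads had been processed with BWA, Picard and SAMtools on sacCer3, per the submitters' processing notes (versions not given there). Read depth is unknown, and lists without heat shock ranged from 1 to 7062 peaks (median 79).

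The end column was taken as the 1-based position, and a gene's strand came from its systematic name (R64 gene table). A target counted at a promoter when any of its libraries had a peak in the window. Libraries of 1 target are not stated to be separate cultures. Positions of classes were compared by a permutation test over targets, checked on simulated data (Python 3.11.15, NumPy 2.4.6, matplotlib 3.10.9). The window, list length, score, antibody, replicates and agreement of libraries were varied.

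The members, the lists and the named targets were chosen with earlier results of these data known. Named were Leu3, Lys14, Gcn4, profiled pathway enzymes, textbook regulators, the 10 targets at the most members, the 10 leaning most to each set, and the 10 with the highest share of members relative to all promoters, of which a selection is given. The NuA4, TFIID and cleavage lists, the TAFs shared with SAGA (from general knowledge), the distances to Lys14 and Leu3, and other targets named beside a count or position (such as Rsc8, Med2, Gcn5, Asg1, Mig2, Sok2, Ume6 and Rpb2) were chosen after their values were seen. The 13 TFIID subunits are among the 29 general transcription factors. Of 1245 samples, 89 had no list here, and 1 whose labels name 2 targets entered no group. Genome sequence was not used here, and 1 other lysine gene is not reported here.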

Additional observations from a re-analysis of the deposited data

Results flagged for a closer look

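Outside the comparisons, the 18 lists from MNase-ChIP-seq of histones and histone marks held 7 peaks in the 10 windows. These were peaks of trimethylated histone H3 lysine 4 at ILV2 (-111 bp in replicate 1, and -151 and 41 bp in replicate 2), at ILV6 (-668 and -667 bp) and at LYS12 (43 bp in replicate 2), and 1 peak of histone H4 acetylated at lysine 12 at ILV6 (-665 bp in replicate 2). The untagged samples had no list here to set them against. No group had from 4 to 10 libraries, so no library was examined for standing apart from its group.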

How the results depend on the processing

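Of 61 values of the 8 planned results under 8 alternatives, 39 kept their direction, side of the threshold or size. With 300 bp upstream, the branched chain median was 20.5 targets and the lysine median 27. Leu3 was then at 1 member, Lys14 at 5 and Gcn4 at 0, and SAGA lay -69.3 bp from general transcription factors (permutation test, adjusted p = 0.00632). With a peak required in every one of 2 or more libraries, the medians were 14 and 16, Gcn4 was at 1 member, and the differences were 55.3 bp for sequence-specific factors (adjusted p = 0.628, reversed) and -12.4 bp for Mediator (adjusted p = 0.902), both from permutation tests. With peaks of score 1000, the medians were 11 and 12, Leu3 was at 3 members, Lys14 at 4 and Gcn4 at 0. The differences then reversed to 145 bp for sequence-specific factors (permutation test, adjusted p = 0.0383) and 10.1 bp for SAGA (0.901). Leaving out replicate 1 or 2, the branched chain median was 26.5 to 28.5, the lysine median 27.5 to 33.5, Gcn4 was at 1 to 2 members, and the differences were -47.4 to -41.8 bp for sequence-specific factors, -110 to -91.8 bp for Mediator and -2.95 to 10.4 bp for SAGA. Leu3 stayed at 3 and Lys14 at 6 members there. The cause of these changes was not tested. Mediator gave no value with 300 bp upstream or score 1000, nor SAGA with a peak in every library.

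Alternatives without LYS20 and for the share of peaks near Lys14 were added after seeing the data. Without LYS20, the difference was -24.9 bp for sequence-specific factors (permutation test, adjusted p = 0.615) and reversed to 191 bp for SAGA (0.026), and Mediator gave no value. With 25 bp in place of 50 bp the shares were 81.6% for SAGA, 71.4% for NuA4 and 68.8% for SWI/SNF, and with 100 bp they were 100% for SAGA and NuA4 and 18.9% for general transcription factors. Without replicate 1 or 2 of Lys14 the SAGA share was 81.6% to 94.7%, that of NuA4 78.6% to 92.9%, of SWI/SNF 81.2% to 100% and of general transcription factors 2.69% to 3.03%. No paired analysis was possible because a replicate number only names a library of 1 target, and the tested values are 1 per target. Targets that are subunits of 1 complex, or that share LYS20, are not independent, so the permutation p-values are limited by this. List length limits what can be found: a short list leaves most promoters without a peak, and an absent peak is no measure of absent binding.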
